A study of Mus musculus with 24 samples.

Results

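Calmodulin, the calmodulin-dependent kinases and calcineurin read calcium signals in neurons, and 9 of their genes are described here across the cell types of the mouse motor cortex and dorsal striatum: Camk2a, Camk2b, Camk2d, Camk2g, Camk4, Calm2, Calm3, Ppp3ca and Ppp3r1. The genes were taken by symbol from the list of 54235 features of the series, and all 9 were found. Calmodulin binds calcium that enters through receptors and channels and then switches on enzymes. CaMKII, built from subunits of the genes Camk2a, Camk2b, Camk2d and Camk2g, phosphorylates synaptic proteins and is known for its part in synaptic strengthening, and CaMKIV, from Camk4, acts largely in the nucleus on transcription factors such as CREB. Calcineurin, made of a catalytic subunit such as the one from Ppp3ca and a regulatory subunit such as the one from Ppp3r1, removes phosphate groups and is known for synaptic weakening and for bringing NFAT factors into the nucleus.

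The study asked how gene expression in single cells of both regions differs between stages of learning a forelimb reaching task. Motor cortex came from Fos-CreER::Ai9 mice and dorsal striatum from Arc-CreER::Ai9 mice, lines in which 4-hydroxytamoxifen (4-OHT) turns on a red fluorescent reporter in cells active at that time. Early mice trained for 2 days and late mice for 8 days, control mice did not train, and mice of all 3 groups received 4-OHT and were collected 3 days after labelling. Tissue of 2 mice was pooled by hemisphere, which gave 2 pools per region and stage, 12 pools in all, with contralateral and ipsilateral libraries in trained pools and left and right libraries in controls. The driver line differs with the region, so that region and line cannot be told apart. No age is given in the labels used here. Cells were freed with papain and sequenced by a droplet 3' method that counts each molecule by its unique molecular identifier (UMI).

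Of 24 libraries 23 were used, and the matrix of the right hemisphere of striatal control replicate 1 was not analysed here. Library totals ran from 5260446 to 30470621 UMIs, and 98612 cells were kept, 467 to 6606 per library with a median of 1970 to 5520 UMIs per cell. Shared cell barcodes, 3053 in all over 276 pairs of libraries, put late replicate 1 and control replicate 1 of each region in one class of library kit and the other 8 pools in another. In the pool labelled motor cortex control replicate 1, a pool of a male and a female by its label, 0.107% of cells held an Xist UMI, against 29.2% to 48.5% in the other 11 pools. In striatal late replicate 1, UMIs of neuron genes in astrocytes stood at 41.8% of their level in neurons of that pool, against 2.81% to 10.5% in the other striatal pools. The same pool stood at 39.2% in endothelial cells, with the others at 4.27% to 9.45%, and at 87.1% in pericytes, where control replicate 1 stood at 45.2% and the others at 2.22% to 5.62%. Cells were clustered without the 9 genes or the other genes of the pathway, and clusters were named from at least 3 markers each. The cortex gave 17525 glutamatergic neurons, 36.5% of its cells, and the striatum 18829 spiny projection neurons, 37.2% of its cells, besides 2757 eccentric spiny neurons, a separate spiny type. The striatal dissections also held 5550 neuroblasts and 3950 cycling progenitors.

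Calm2 and Calm3 encode the same protein from separate messages, and the start of their coding sequences is shown here. The counts rest on the 3' ends, which are not shown. These bases therefore do not tell how well reads of the genes can be separated. Below are the first 90 bases of both coding frames from the GENCODE transcripts for GRCm38, 5′ to 3′, with capitals at each position where they differ. Over the frame of 450 bases Calm2 and Calm3 differed at 78 bases (82.7% identical). A 3' count rests on the ends of the messages, and how the counting treated reads that match more than 1 of these genes is not given in the sources used here, so values of Calm2 and Calm3 carry that uncertainty.
Calm2: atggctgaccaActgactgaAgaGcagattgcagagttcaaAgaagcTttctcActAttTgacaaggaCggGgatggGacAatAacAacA
Calm3: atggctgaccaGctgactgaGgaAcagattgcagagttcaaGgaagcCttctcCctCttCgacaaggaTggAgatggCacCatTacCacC

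Camk2b and Ppp3r1 had the most similar profiles over cell types of any pair of the 9 genes, and Camk2d resembled none of them, so the promoters of these 3 are shown. Each runs from 250 bases before to 50 after the start given by RefSeq (GRCm38.p6), on the gene's strand, and capitals mark CGTCA, the reverse complement of TGACG, the short site that CREB can bind. The RefSeq table held 4 of the 9 genes. TGACG on either strand lay in Calm3 and Ppp3r1 of these 4 and in 20.8% of all 32851 promoters of this length. The full site TGACGTCA, which contains the short one, lay in none of the 4 and in 1.79% of all. The 4 promoters held 70.3% to 77.3% G and C, against a median of 52.7% over the table.
Ppp3r1, chr11:17159048-17159347, plus strand: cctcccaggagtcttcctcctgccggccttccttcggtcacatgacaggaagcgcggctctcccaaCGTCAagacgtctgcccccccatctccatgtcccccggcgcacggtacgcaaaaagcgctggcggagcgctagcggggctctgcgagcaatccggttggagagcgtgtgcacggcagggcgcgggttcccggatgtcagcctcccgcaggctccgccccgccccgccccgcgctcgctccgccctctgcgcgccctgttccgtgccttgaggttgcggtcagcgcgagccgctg
Camk2b, chr11:6065699-6065998, minus strand: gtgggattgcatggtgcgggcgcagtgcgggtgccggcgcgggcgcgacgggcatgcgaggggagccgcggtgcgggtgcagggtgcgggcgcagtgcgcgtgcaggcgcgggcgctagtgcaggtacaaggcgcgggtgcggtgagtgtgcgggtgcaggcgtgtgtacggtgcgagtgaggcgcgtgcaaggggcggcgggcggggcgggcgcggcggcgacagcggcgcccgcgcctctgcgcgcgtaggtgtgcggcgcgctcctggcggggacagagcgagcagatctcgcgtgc
Camk2d, chr3:126596701-126597000, plus strand: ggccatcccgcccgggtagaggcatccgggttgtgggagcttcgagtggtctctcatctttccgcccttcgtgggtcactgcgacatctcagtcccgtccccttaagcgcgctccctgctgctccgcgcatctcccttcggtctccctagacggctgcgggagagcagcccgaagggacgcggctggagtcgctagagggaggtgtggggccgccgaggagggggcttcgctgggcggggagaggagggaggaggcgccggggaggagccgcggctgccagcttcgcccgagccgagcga

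Among neurons, 3 genes of the family divided the cell types most. Camk2d was high in near-projecting cortical neurons, cholinergic interneurons and eccentric spiny neurons and low in D1 and D2 spiny neurons and in Rorb neurons of layer 4/5. Camk4 was highest in D1 spiny neurons and Camk2a in Rorb neurons of layer 4/5, and both were lowest in cholinergic interneurons. Calm2, Calm3 and Ppp3r1 were found in every neuron type within narrower ranges. Levels below are log2 CPM of the UMIs summed over a pool's cells of a type, as mean ± SD over pools. Log2 CPM is the log2 of a gene's count scaled to the total UMIs of that sum, with a prior count of 2. Because libraries count 3' ends, levels are compared between cell types of 1 gene and not between genes. Over 17 neuron types the means of a gene spanned 6.27 log2 units for Camk2d, 5.68 for Camk4, 4.95 for Camk2a, 3.76 for Ppp3ca, 3.60 for Camk2g, 2.58 for Camk2b, 2.49 for Ppp3r1, 1.51 for Calm2 and 0.87 for Calm3. In the order of all types by level, 3 to 7 of 20 neighbouring pairs in the cortex and 2 to 6 of 19 in the striatum had the same sign in every pool and a mean difference above the SD of the differences, depending on the gene.

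**Figure D1:**
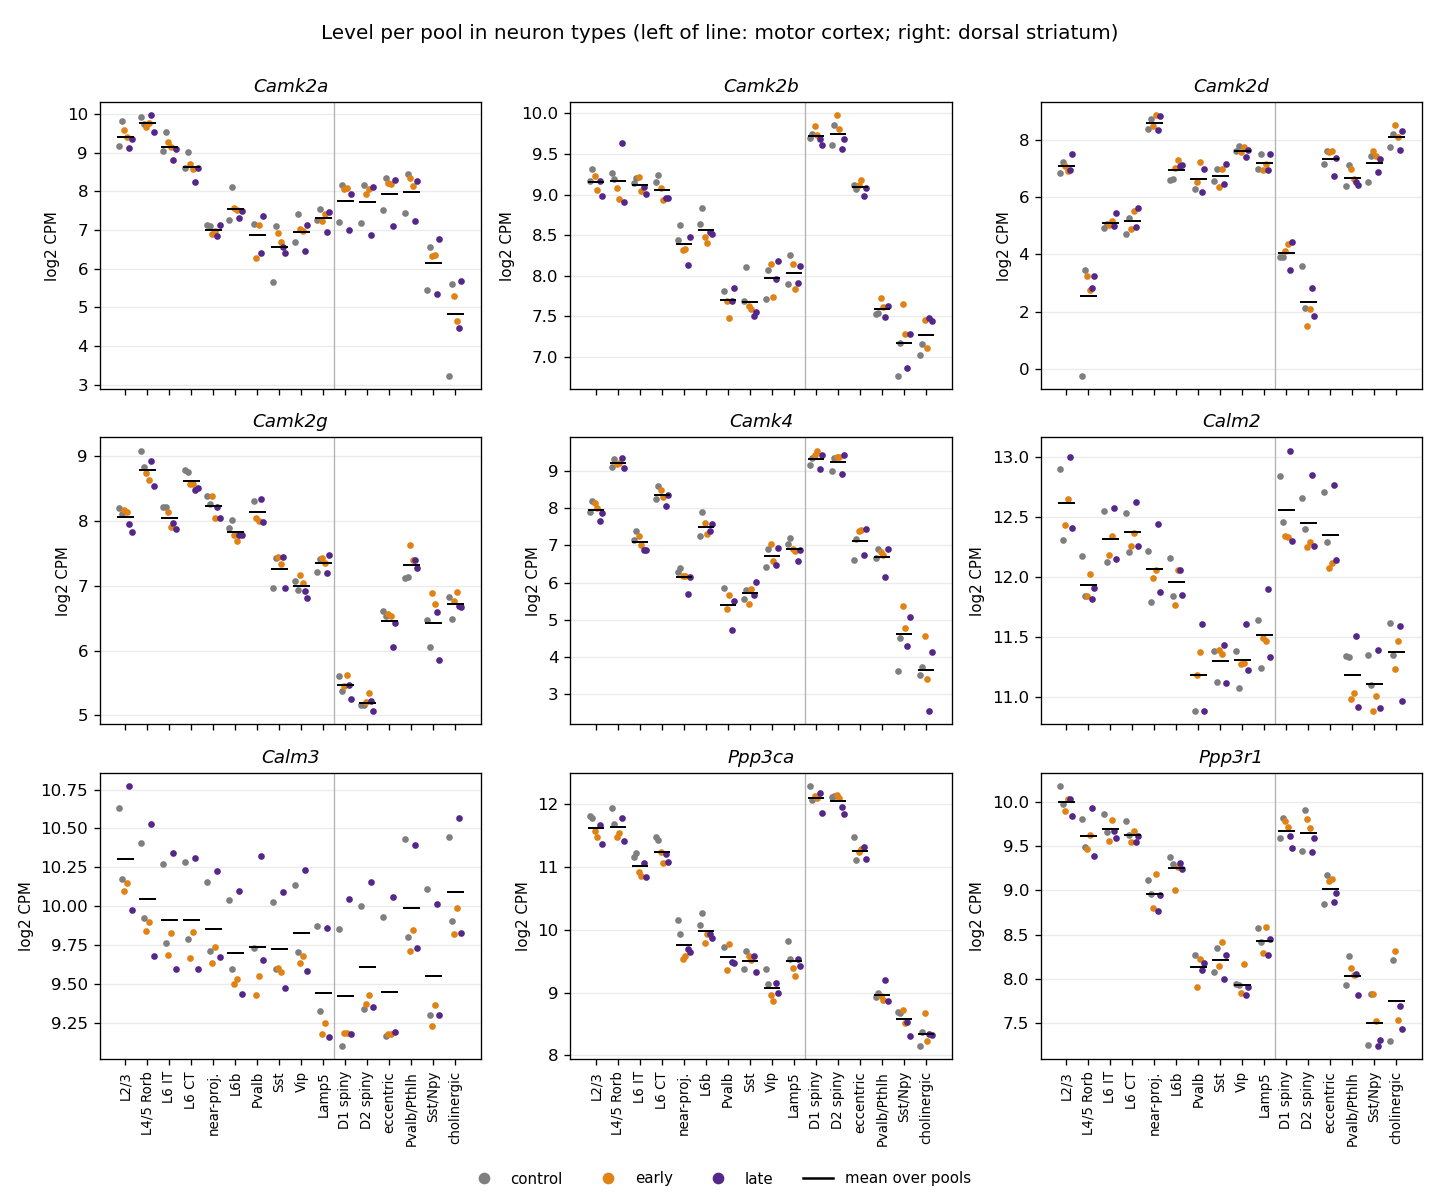
Level of each of the 9 genes (log2 CPM, vertical axis) in 16 neuron types (horizontal axis), motor cortex left of the line and dorsal striatum right of it, 1 point per pool coloured by stage and a bar at the mean. Camk2d ranged from 8.59 in near-projecting neurons to 2.32 in D2 spiny neurons, while Calm3 stayed between 9.43 and 10.30 in all of them.

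Calm2 (chromosome 17, bases 87433412 to 87446935, minus strand, in GRCm38) and Calm3 (chromosome 7, 16915379 to 16924114, minus strand) are the calcium sensors of the family. Calm2 was highest in layer 2/3 neurons, at 12.62 ± 0.28 (n = 6) with a lowest pool of 12.31, and lowest among neurons in striatal Sst/Npy interneurons, at 11.11 ± 0.22 with a highest pool of 11.39. The pools of these types did not overlap. Calm3 stood at 10.30 ± 0.32 in layer 2/3 neurons and at 9.43 ± 0.41 in D1 neurons, the ends of its order among neurons. The pools of these ends overlapped.

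The CaMKII genes lie apart in the genome: Camk2a on chromosome 18 (60925618 to 60988152, plus strand), Camk2b on 11 (5969644 to 6066362, minus), Camk2d on 3 (126596302 to 126846326, plus) and Camk2g on 14 (20734875 to 20794088, minus). Camk2a, the main catalytic subunit of the forebrain, was highest in layer 4/5 Rorb neurons with pools at 9.55, 9.76 and 9.96 (lowest, median, highest) and next in layer 2/3 neurons at 9.12, 9.37 and 9.81. These neighbours did not differ beyond their spread, since the first was higher in 5 of 6 pools by 0.36 ± 0.36. Layer 6 intratelencephalic neurons followed at 9.15 ± 0.24, layer 6 corticothalamic neurons at 8.62 ± 0.25, layer 6b neurons at 7.54 ± 0.30 and near-projecting neurons at 7.01 ± 0.12. Striatal D1 (7.74 ± 0.51) and D2 neurons (7.72 ± 0.55) lay among these, and cholinergic interneurons were lowest with pools from 3.22 to 5.67. All 6 cholinergic pools lay below every pool of every cortical projection type.

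Camk2b, the subunit known for binding actin, was highest in D2 (9.75 ± 0.16) and D1 neurons (9.72 ± 0.08). Rorb neurons of layer 4/5 (9.17 ± 0.26), layer 2/3 neurons (9.15 ± 0.12) and eccentric spiny neurons (9.09 ± 0.06) were lower, and interneuron types ranged from 7.17 ± 0.32 in Sst/Npy cells to 8.03 ± 0.17 in Lamp5 cells. The pools of D1 and D2 neurons overlapped, and every one of them was above every eccentric pool.

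Camk2d gave the sharpest divisions. Near-projecting neurons had pools at 8.33, 8.58 and 8.85 (lowest, median, highest), cholinergic interneurons at 7.66, 8.14 and 8.51, Vip interneurons at 7.38, 7.62 and 7.78 and layer 2/3 neurons at 6.84, 7.01 and 7.52. In layer 6 the corticothalamic (5.15 ± 0.37) and intratelencephalic neurons (5.10 ± 0.18) were lower, and in Rorb neurons of layer 4/5 the level was 2.54 ± 1.39, with no UMI in control replicate 1. Within the striatum the eccentric neurons stood at 7.14 and 7.61 in control, 7.56 and 7.59 in early and 6.72 and 7.35 in late pools (replicates 1 and 2 of each). D1 neurons stood at 3.90, 3.91, 4.12, 4.35, 3.46 and 4.44 in the same order, and D2 neurons at 3.59, 2.11, 1.51, 2.09, 2.81 and 1.85. Every eccentric pool lay above every D1 pool, and in each of the 6 pools D1 was above D2. The lowest mean of all types was that of striatal oligodendrocytes (1.52 ± 2.06, n = 4), which rests on 4 UMIs in 182 cells and so largely on the prior count.

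Camk2g was highest in layer 4/5 (8.79 ± 0.20) and corticothalamic neurons (8.61 ± 0.13) and lowest among neurons in D1 (5.46 ± 0.14) and D2 neurons (5.19 ± 0.09). Parvalbumin interneurons, at 8.14 ± 0.17 (n = 5), were within the range of the cortical projection types. Camk4 (chromosome 18, 32934931 to 33191228, plus strand) was highest in D1 (9.33 ± 0.19), D2 (9.24 ± 0.22) and layer 4/5 neurons (9.21 ± 0.11), which overlapped, and lower in eccentric spiny (7.13 ± 0.36), Sst/Npy (4.61 ± 0.62) and cholinergic neurons (3.65 ± 0.69). The catalytic calcineurin gene Ppp3ca (chromosome 3, 136670124 to 136937727, plus strand) followed a like order, with D1 at 12.11 ± 0.15, D2 at 12.05 ± 0.12, layer 4/5 at 11.64 ± 0.20 and cholinergic interneurons at 8.35 ± 0.18. Its regulatory partner Ppp3r1 (chromosome 11, 17159263 to 17200375, plus strand) led in layer 2/3 neurons (9.99 ± 0.12), stood at 9.67 ± 0.13 in D1 neurons and was lowest in Sst/Npy interneurons (7.50 ± 0.28).

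Differences between cell types of the same pools were tested with edgeR's quasi-likelihood test over all genes, with Benjamini-Hochberg adjustment and a call at 0.05. The p-values measure the spread between pools and take each pool as its own replicate. Differences between types are common over the transcriptome, so the share of all genes called is given with each count. Cortical glutamatergic neurons differed from GABAergic interneurons in all 9 genes, against 69.0% of all genes. Of these 8 were higher in glutamatergic neurons. Ppp3ca was 3.69-fold higher (log2 1.88, SE 0.051, edgeR adjusted p = 1.68e-24), Camk4 differed by 1.84, Camk2a by 1.76, Ppp3r1 by 1.51, Camk2g by 1.13, Camk2b by 1.11, Calm2 by 1.06 and Calm3 by 0.43. Camk2d was 1.90-fold lower (log2 -0.92, SE 0.052, adjusted p = 3.38e-16). In each of the 9 the difference had the same sign in every pool.

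Within the cortex, layer 2/3 neurons differed from layer 6 corticothalamic neurons in 8 of 9 genes (63.4% of all genes). Camk2d was 3.61-fold higher in layer 2/3 (log2 1.85, SE 0.060, edgeR adjusted p = 3.74e-35) and Camk2a was higher by 0.68, whereas Camk2g was lower by 0.65 (log2 -0.65) and Camk4 by 0.49 (log2 -0.49). Calm3, Ppp3ca, Ppp3r1 and Calm2 were higher by 0.29, 0.27, 0.26 and 0.14, and Camk2b differed by -0.00 (adjusted p = 0.944). Between parvalbumin and somatostatin interneurons, the 5 pools with at least 20 cells of each gave 1 call of 9 (33.2% of all genes), Camk2g, higher in parvalbumin cells by 0.72 (SE 0.11, adjusted p = 5.56e-07). Comparisons with the layer 5 Fezf2 Bcl11b neurons, of which there were 72 cells, could not be fitted.

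In the striatum, spiny projection neurons differed from GABAergic interneurons in all 9 genes (75.0% of all genes). Ppp3ca was 8.67-fold higher in spiny neurons (log2 3.12), Camk4 differed by 2.98, Camk2b by 2.18, Ppp3r1 by 1.79, Calm2 by 1.32 and Camk2a by 0.61. Camk2d was 15.2-fold lower (log2 -3.92, SE 0.088, edgeR adjusted p = 1.51e-37) and Camk2g was lower as well (log2 -1.74). Calm3 was lower by 0.20 (log2 -0.20, adjusted p = 0.00241), a call that was lost without a filter on low counts (log2 -0.08, adjusted p = 0.368). D1 and D2 neurons differed in 4 of 9 genes (26.2% of all genes): Camk2d was 3.60-fold higher in D1 (log2 1.85, SE 0.225, adjusted p = 6.00e-07), Camk2g was higher by 0.21 (adjusted p = 0.00536), Calm3 was lower by 0.24 (log2 -0.24, adjusted p = 2.02e-07) and Camk2b by 0.09 (log2 -0.09, adjusted p = 0.0417). With DESeq2 the Camk2g and Camk2b calls were lost (adjusted p = 0.129 and 0.16), and that of Camk2b was lost also without control replicate 2, early replicate 1, early replicate 2 or late replicate 2. For Camk2a, Camk4, Calm2, Ppp3ca and Ppp3r1 the fitted D1 minus D2 differences lay between -0.05 and 0.04.

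Eccentric spiny neurons stood apart from the joint group of D1 and D2 neurons in 8 of 9 genes (51.3% of all genes). D1 and D2 neurons had 15.5-fold less Camk2d (log2 -3.96, SE 0.085, edgeR adjusted p = 4.56e-31) and less Camk2g (log2 -1.06), and 4.66-fold more Camk4 (log2 2.22). They were also higher in Ppp3ca by 0.92, Camk2b by 0.75, Ppp3r1 by 0.74, Calm2 by 0.26 and Calm3 by 0.18, while Camk2a differed by -0.10 (adjusted p = 0.0559). Against striatal neuroblasts, spiny neurons differed in 8 of 9 (81.8% of all genes), by 4.81 for Camk2b, 4.53 for Camk2a, 4.12 for Ppp3ca, 4.00 for Camk4, 3.14 for Ppp3r1, 2.62 for Calm2 and 0.99 for Calm3. Camk2d was lower in spiny neurons than in neuroblasts (log2 -2.32), and Camk2g differed by 0.19 (adjusted p = 0.103). With stricter cells the Camk4 difference was 4.75.

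**Figure D2:**
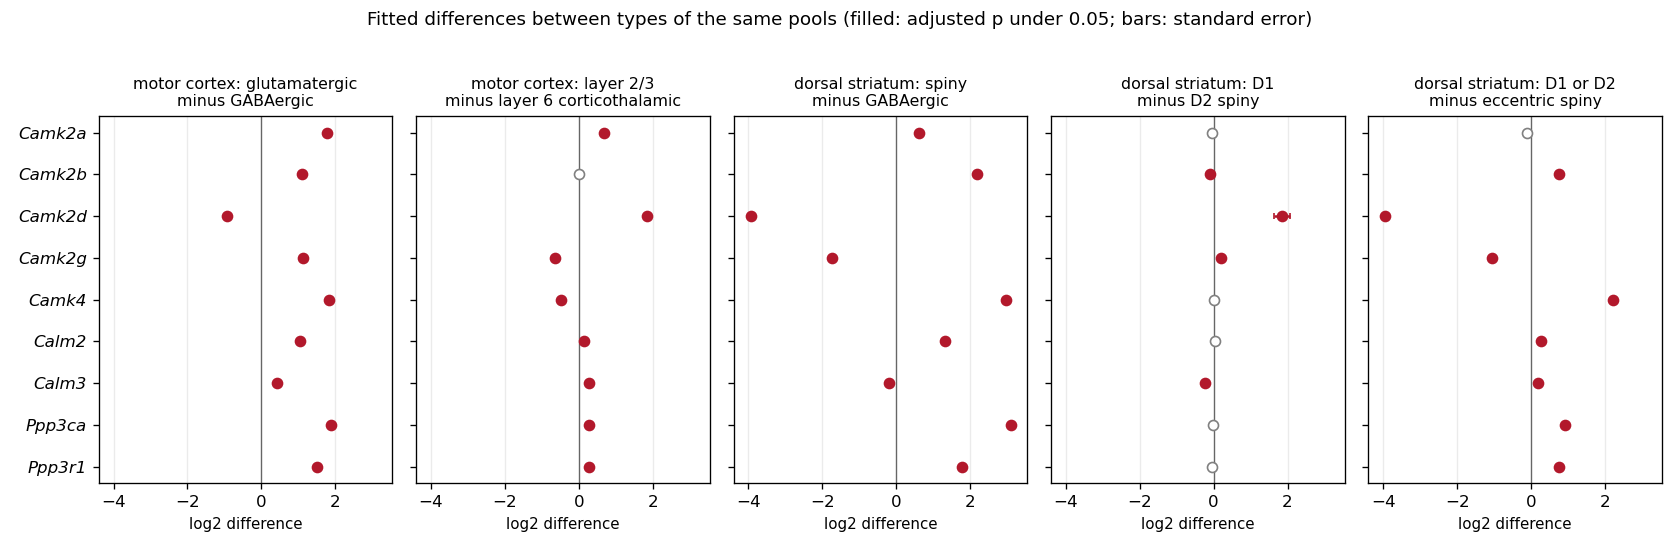
Fitted log2 difference (horizontal axis, with its SE as a bar) of each of the 9 genes (vertical axis) in 5 comparisons of neuron types, filled red where the edgeR adjusted p was under 0.05. Camk2d lay at -0.92, 1.85, -3.92, 1.85 and -3.96 in these comparisons, and against interneurons the other 8 genes lay on the side of the projection neurons in the cortex, as did all but Camk2g and Calm3 in the striatum.

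The make-up of the CaMKII messages was read from the share of each Camk2 gene among the UMIs of all 4. Shares of 1 gene are compared between types, because a gene's share also depends on how its 3' end is captured. In cortical glutamatergic neurons Camk2a and Camk2b each took 35.6%, Camk2g 23.2% and Camk2d 5.61%. In cortical GABAergic interneurons Camk2a took 21.8% and Camk2d 21.9%. Spiny projection neurons had 76.8% Camk2b, 19.0% Camk2a, 3.47% Camk2g and 0.803% Camk2d, and striatal interneurons 32.4%, 23.7%, 22.1% and 21.8%. Camk2d took 1.41% in D1, 0.464% in D2 and 15.4% in eccentric neurons, where Camk2b took 52.4%. Layer 2/3 neurons had 41.1% Camk2a and 8.30% Camk2d, and corticothalamic neurons 29.2% and 2.65%. The share of Camk2d was largest among the neuron types plotted in cholinergic interneurons, 48.2% ± 4.6 (SD, n = 6) beside 5.38% ± 2.5 for Camk2a, and came next to that at 33.6% ± 4.1 in near-projecting neurons. Rorb neurons of layer 4/5 were at the other end, with 45.9% ± 2.0 Camk2a and 0.358% ± 0.20 Camk2d.

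Of 20 comparisons of shares between types of the same 6 pools, 17 had the same sign in 6 of 6 pools, with the smallest p that an exact two-sided permutation test of 6 pools can give (p = 0.03125, adjusted over the 20 p = 0.0368). The others were Camk2b (adjusted p = 0.139, exact permutation test) and Camk2g (0.164) between cortical glutamatergic and GABAergic neurons and Camk2a between D1 and D2 neurons (0.719).

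**Figure D3:**
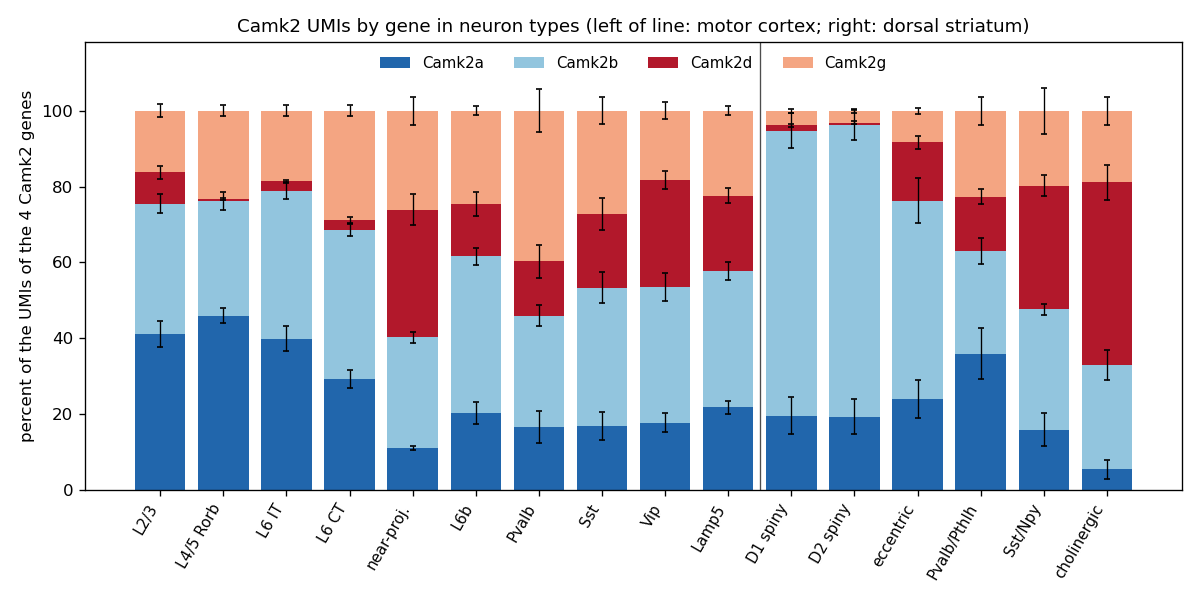
Percent of the UMIs of the 4 Camk2 genes (vertical axis, from 0) that each gene took in each neuron type (horizontal axis), as mean over pools, with the SD of a segment's share drawn at its top. The Camk2d segment is near 1% in D1 and D2 neurons and 15.4% in eccentric neurons.

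In each non-neuronal type tested, 7 of the 9 genes were lower than in projection neurons of the same region. Camk2d and Camk2g were not lower in all of them. Projection neurons were set against astrocytes, oligodendrocyte precursors, microglia and endothelial cells in each region and, in the striatum, oligodendrocytes. Other non-neuronal types, such as smooth muscle cells, pericytes, fibroblasts and ependymal cells, were not tested against neurons. In the cortex 33 of 36 gene tests were called (78.6% of all genes) and in the striatum 43 of 45 (70.8% of all genes). With the comparisons among neurons and with neuroblasts, 123 of 144 gene tests were called (68.2% of all genes), 51 of 63 in the cortex (71.5%) and 72 of 81 in the striatum (65.4%). Camk2d was lower in cortical glutamatergic neurons than in microglia (log2 -1.85) and astrocytes (-0.53), and did not pass the test against oligodendrocyte precursors (-0.03, edgeR adjusted p = 0.792) or endothelial cells (0.07, adjusted p = 0.658). Spiny neurons had 31.1-fold less Camk2d than striatal microglia (log2 -4.96), and less than endothelial cells (-3.49), astrocytes (-3.39) and oligodendrocyte precursors (-3.04). Against striatal oligodendrocytes, with 4 pools, Camk2d differed by 1.23 (adjusted p = 0.332), with 4 UMIs in the oligodendrocytes.

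Camk2g was highest in cortical astrocytes (8.61 ± 0.25) and in vascular smooth muscle cells (8.03 ± 0.29 in cortex, 7.94 ± 0.07 in striatum) of all non-neuronal types. Cortical glutamatergic neurons and astrocytes differed by -0.04 in Camk2g (edgeR adjusted p = 0.801). Spiny neurons had less of it than striatal astrocytes (log2 -2.44), and more than microglia (0.67), oligodendrocyte precursors (0.35) and oligodendrocytes (1.98), the last resting on 5 UMIs in oligodendrocytes and being lost without early replicate 1 (adjusted p = 0.0707) or late replicate 2 (adjusted p = 0.075). Camk2d was highest outside neurons in vascular smooth muscle (8.25 ± 0.20 in cortex, 8.29 ± 0.30 in striatum), followed by cortical pericytes (7.66 ± 0.24) and microglia (7.56 ± 0.24 in cortex, 7.41 ± 0.52 in striatum).

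RNA freed from broken neurons enters droplets of other cells, so each level outside neurons was set beside the level that free RNA would give. That level was the gene's CPM in the projection neurons of the same pool, multiplied by the share that neuron genes (Snap25, Syt1, Snhg11 and Stmn2) reached in the cell type. Of 180 pairs of gene and type, 104 lay above this level in every pool. When Stmn2 alone set the level the count was 64, and 55 pairs lay above it in every pool with the 4 genes summed and with each gene alone. The pairs named here with a level above that of free RNA are among the 55, although the ratio of measured to free RNA level moved with the gene used, for Camk2d in striatal microglia from 73.7 to 767. Camk2d lay above it widely: cortical microglia measured 190 CPM against 1.75 from free RNA of projection neurons, striatal microglia 177 against 0.311, cortical smooth muscle 306 against 1.34 and cortical astrocytes 129 against 2.16. RNA freed by other cells is not counted in that level, and its part was not tested. Striatal interneurons, eccentric neurons and microglia held more Camk2d than spiny neurons did. Camk2g measured 394 CPM against 10.1 in cortical astrocytes and 216 against 4.91 in striatal ones. Calm3 measured 706 CPM against 17.4 in ependymal cells and 336 against 19.9 in cortical smooth muscle, and Calm2 1176 against 97.0 in the latter. For Camk2b and Camk4 the measured level lay much nearer to that of free RNA. In striatal astrocytes the ratio was 0.960 for Camk2b and 0.935 for Camk4, with 0.274 to 1.04 and 0.268 to 1.02 from single genes. Over all these types the ratio for Camk2a ran from 0.255 to 3.87. It was 3.11 in cortical microglia and 1.75 in cortical pericytes, both among the 55 pairs.

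**Figure D4:**
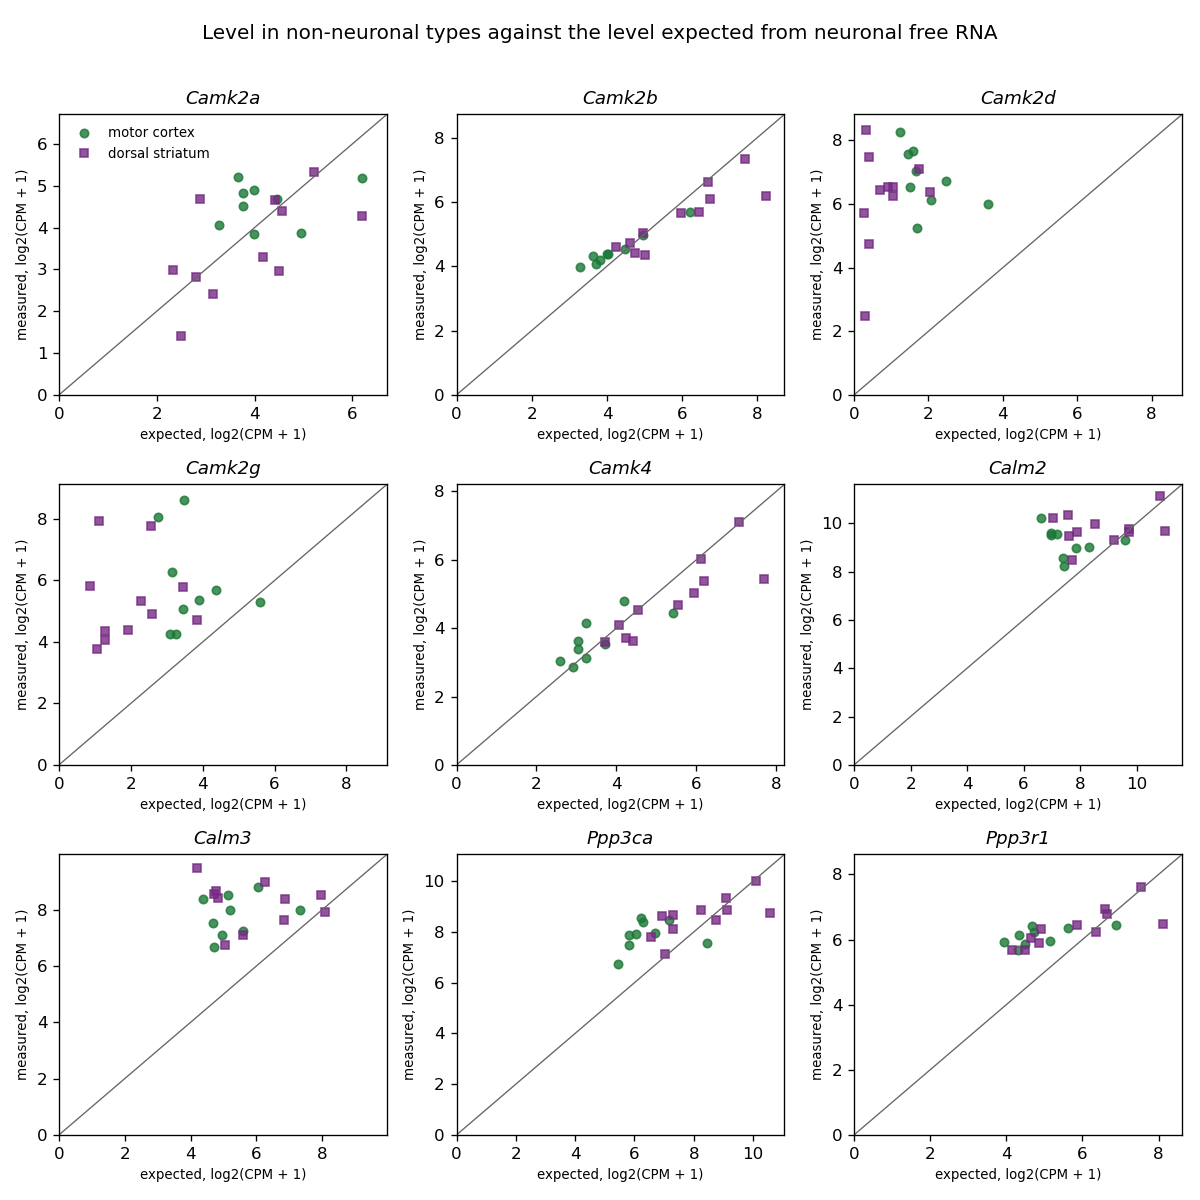
Measured level (vertical axis) against the level free RNA of projection neurons would give (horizontal axis), both log2(CPM + 1) and means over pools, in non-neuronal types, 1 panel per gene, green circles for motor cortex and purple squares for dorsal striatum, with the line of equality. Most Camk2d and Camk2g points lie far above the line, and most of those of Camk2b and Camk4 lie near it.

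Cell type, region and driver line all differ between spiny and cortical glutamatergic neurons and cannot be told apart in their comparison. Between the regions, spiny neurons differed from cortical glutamatergic neurons in 7 of 9 genes (66.0% of all genes). They had 8.86-fold less Camk2d (log2 -3.15, SE 0.134, edgeR adjusted p = 3.64e-11), less Camk2g (-3.05), Camk2a (-1.23) and Calm3 (-0.50), and more Camk4 (1.09), Ppp3ca (0.91) and Camk2b (0.82). Calm2 differed by 0.13 and Ppp3r1 by 0.03. The Calm3 call was lost without a term for library kit (adjusted p = 0.0704).

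In types found in both regions 7 further pairs of 69 tested were called, 10.1% beside 10.2% of all genes: 5 of 9 in astrocytes (21.7% of all genes in that type), 1 in oligodendrocyte precursors (Camk2b, higher in striatum by 0.65, adjusted p = 0.0142) and 1 in GABAergic interneurons (Ppp3ca, lower in striatum by 0.28, log2 -0.28, adjusted p = 0.0126). Striatal astrocytes had more Camk4 (log2 3.20), Camk2b (2.23) and Calm2 (1.11) and less Camk2g (-0.90, adjusted p = 0.00135) and Camk2d (-0.51, adjusted p = 0.0273). Neuron genes in astrocytes reached 1.26% to 9.03% of their neuronal level in cortical pools and 2.81% to 41.8% in striatal pools, and their part in these differences was not tested. Without striatal late replicate 1, the pool at 41.8%, the Camk4 difference was 2.29, the Camk2b difference 1.60 and the Calm2 difference 0.68. Without cortical late replicate 1 they were 2.29, 1.44 and 0.78. The Camk2d call was lost without that cortical pool or without striatal control replicate 1, early replicate 2, late replicate 1 or late replicate 2, and also without the low-count filter (log2 -0.47, adjusted p = 0.0905). The Calm2 call was lost without cortical early replicate 1, cortical late replicate 1 or striatal control replicate 2, that of Camk2b in precursors without striatal early replicate 1 or late replicate 1, and that of Ppp3ca in interneurons without striatal control replicate 1. In addition, the calls of Camk2d, Calm2, Camk2b in precursors and Ppp3ca in interneurons were lost without the kit term (adjusted p = 0.0982, 0.177, 0.113 and 0.10). With the flow cell as a term in place of the kit, tested after seeing the data, all 7 of these calls were lost (adjusted p from 0.129 to 0.808, 3.35% of all genes called). The differences then were 4.16 for Camk4, 1.83 for Camk2b, 0.50 for Calm2, -0.54 for Camk2g and -0.50 for Camk2d in astrocytes, 0.54 for Camk2b in precursors and -0.27 for Ppp3ca in interneurons. The 7 calls between spiny and glutamatergic neurons were kept in that fit. Only the flow cells of early replicate 2 and of late replicate 2 hold both regions, so region differences in that fit rest on these pools.

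By learning stage, no gene of the family passed the test in any neuron type of either region. In 19 cortical and 20 striatal types, each with 3 comparisons, 3 tests were called. Of all genes in the cortex 0.00368% were called for early against control, 0.0258% for late against control and 0.00263% for late against early. In the striatum these shares were 0.0716%, 0.0301% and 0.0306%. Unadjusted p-values under 0.05 numbered 8, 9 and 2 in the cortex and 10, 11 and 10 in the striatum, of 156 and 165 tests for each comparison. Leaving out 1 pool leaves the spread to be estimated from 1 residual degree of freedom and the tests then called between 0 and 2 pairs of 474 to 498 in the cortex, where 0.102% to 0.352% of all genes were called. In the striatum 27 pairs of 516 were called without control replicate 2 (0.821% of all genes), 18 of 510 without late replicate 2 (0.531%), 6 of 516 without late replicate 1 (0.854%) and 5 of 516 without control replicate 1 (0.885%). In all 12 such fits 0 of the calls were in neurons. Of the 27 calls 22 were in astrocytes and endothelial cells, among 54 pairs there (3.73% of all genes in these types), and of the 18 calls 16 were, also among 54 (2.47%). Of the 54 pairs there, 3 were called without late replicate 1 (0.363% of all genes in these types) and 2 without control replicate 1 (0.523%). Without early replicate 1 (0.0174%) or early replicate 2 (0.00333%) 0 were called. Late replicate 1 had the most neuron RNA in these types, and its part in the calls was not tested. In the 9 types found in both regions, fitted over both with region and flow cell as terms (added after seeing the data), 0 of 216 stage tests were called (0.0332% of all genes), with 13 unadjusted p-values under 0.05. Stage differences in that fit rest on the flow cells with a control and a trained pool, since the others hold 1 stage each.

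Ppp3ca in cortical glutamatergic neurons stood at 11.48 and 11.36 in control pools, 11.09 and 11.08 in early pools and 11.22 and 10.95 in late pools (log2 CPM, replicates 1 and 2). Both trained groups lay below both control pools. The late against control difference was -0.31 (edgeR adjusted p = 0.854). Camk2a in the same neurons stood at 8.91 and 9.32 in control, 9.02 and 9.02 in early and 8.63 and 8.85 in late pools, and late differed from control by -0.35 (SE 0.118, edgeR adjusted p = 0.854). Late pools lay below control pools and early pools between the control pools. Within the flow cells that hold a trained and a control pool, and on the TMM scale of the fits, which differs from that of the levels above, late replicate 1 differed from control replicate 1 by -0.24 for Camk2a and -0.22 for Ppp3ca, and early replicate 1 from control replicate 2 by -0.27 and -0.23.

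In spiny neurons Ppp3ca stood at 12.23 and 12.18 in control, 12.20 and 12.14 in early and 12.07 and 11.90 in late pools, and Camk2a at 7.21 and 8.16, 8.03 and 8.09, and 6.93 and 8.04. The Camk2a values split by pool: control replicate 1 and late replicate 1, both of the first kit class, were low and the others were near 8. The largest fitted stage difference over the 9 genes was 0.35 log2 units in glutamatergic neurons and 0.28 in spiny neurons. In single neuron types fitted differences were larger, up to 0.89 for Camk2a in cholinergic interneurons (late against early, SE 0.384, edgeR adjusted p = 0.922). In striatal Sst/Npy interneurons Camk2g differed by 0.81 for early against control (SE 0.220, edgeR adjusted p = 0.201). For late against early it differed there by -0.82 (SE 0.227, adjusted p = 0.433). The largest in the cortex was 0.54 for Camk2d in layer 6b neurons (early against control, SE 0.188, adjusted p = 0.995). Camk2d in D2 neurons differed by -0.62 between late and control pools (SE 0.351, adjusted p = 0.842). In simulated counts of cortical glutamatergic neurons, the late against control test recovered 0.5% of genes changed 1.5-fold, 62.5% of those changed 2-fold and 91% of those changed 4-fold. Of the genes called there, 66.7%, 11.3% and 8.08% were unchanged ones. Each setting changed 200 genes, and with 0.5% of them recovered at 1.5-fold the 66.7% rests on very few calls. Stage tests of other comparisons or cell types were not simulated. For cortical glutamatergic neurons, simulated tests against GABAergic neurons, by hemisphere and by reporter recovered 85%, 88% and 87% of genes changed 1.5-fold. Of the genes called there, 7.10%, 5.38% and 4.40% were unchanged ones. The simulated test between regions in microglia recovered 11%, with 8.33% of its calls unchanged ones.

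**Figure D5:**
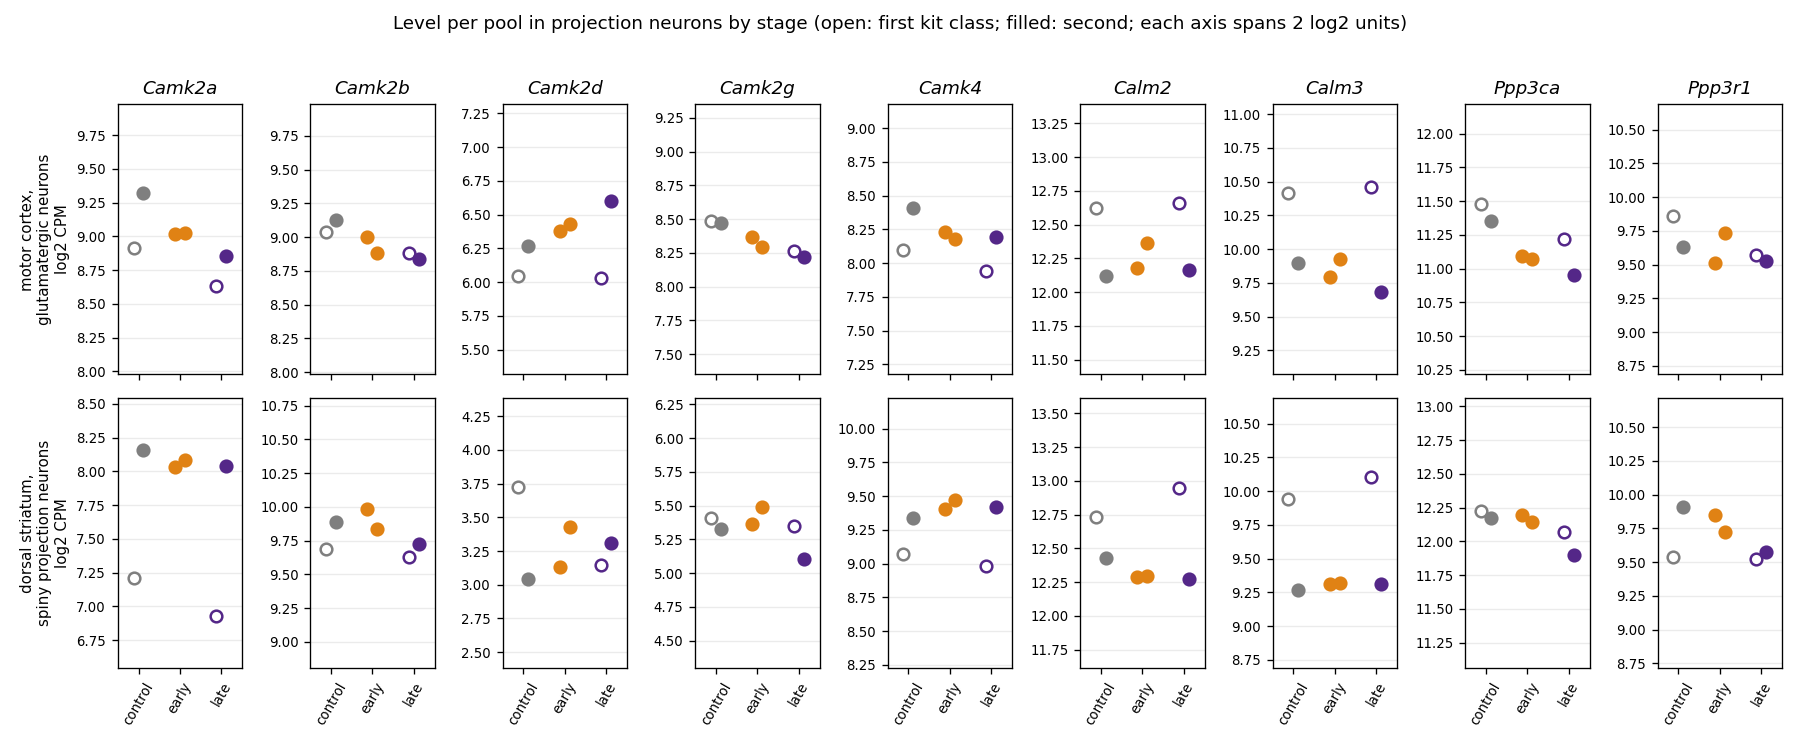
Level of each gene (log2 CPM, vertical axis spanning 2 log2 units) in projection neurons by stage (horizontal axis), 1 point per pool, for cortical glutamatergic and striatal spiny neurons, open points for the first kit class and filled points for the second. In spiny neurons the open points of Camk2a lie below all filled points and those of Calm2 and Calm3 above them.

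Several of these levels differed between the classes of library kit. Within a region the first class is the flow cell of control replicate 1 and late replicate 1. Kit class, flow cell and group of mice therefore cannot be told apart here. In spiny neurons the first class lay wholly below the second for Camk2a (by 1.01 log2 units, first minus second -1.01), Camk4 (-0.38), Ppp3r1 (-0.23) and Camk2b (-0.20) and wholly above it for Calm3 (0.72) and Calm2 (0.52). In cortical glutamatergic neurons this held for Calm3 (0.61), Calm2 (0.43), Camk2d (-0.38) and Camk4 (-0.24). Each class holds a control and a late pool of each region, whereas both early pools are in the second, and the tests by stage carried a term for the class.

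The 3 calls by stage were all Ppp3ca outside neurons. In cortical fibroblasts Ppp3ca was lower in late than in control pools (log2 -1.92, SE 0.45, edgeR adjusted p = 0.0247). The counts were small, 29 and 23 UMIs in control, 9 and 4 in early and 18 and 13 in late pools, from 25 to 104 cells. The level free RNA would give was 670 and 392 CPM in control, 216 and 331 CPM in early and 263 and 227 CPM in late pools. Measured levels were 584 and 232, 81.7 and 42.1, and 80.3 and 120 CPM in the same order. In striatal perivascular macrophages Ppp3ca was higher in early than in control pools (log2 1.57, adjusted p = 0.0225) and lower in late than in early pools (-1.78, adjusted p = 0.00848). It measured 377 and 265 CPM in control, 721 and 901 in early and 290 and 245 in late pools, from 25 to 100 UMIs in 32 to 66 cells. Neuron genes in these cells stood at 1.22% and 2.44% of their neuronal level in control, 8.56% and 15.1% in early and 4.45% and 9.48% in late pools. The part of free RNA in these calls was not tested. All 3 calls were lost with DESeq2 and without the kit term, and with a minimum of 50 cells per pool they could not be fitted. The fibroblast call was lost also with RLE scaling factors (adjusted p = 0.0817) and without the low-count filter (log2 -1.60, adjusted p = 0.909). Leaving out control replicate 1 or late replicate 1 ended the fibroblast call (log2 -0.90 and -0.88). Without control replicate 2 or late replicate 2 it was larger (log2 -2.68, adjusted p = 0.00106, and -2.67, adjusted p = 0.00159), and within the shared flow cell the difference was -2.57. Leaving out control replicate 2 (adjusted p = 0.853) or early replicate 2 (0.0736) ended the first macrophage call, and leaving out late replicate 2 (0.437) ended the second.

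Contralateral and ipsilateral hemispheres of trained pools gave 0 calls in 293 tests, with 10 unadjusted p-values under 0.05 in the cortex and 4 in the striatum, and DESeq2 gave 0 as well. Of all genes 0.0364% were called in the cortex and 0.0189% in the striatum. The smallest edgeR adjusted p, 0.0583, belonged to Camk2d in cortical glutamatergic neurons, lower on the contralateral side by 0.19 (log2 -0.19). The difference between regions in the stage effect gave 0 calls in 162 tests (0.00581% of all genes), with 8 and 16 unadjusted p-values under 0.05 for early and late against control and 0 calls with DESeq2.

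Neurons with a reporter UMI were compared with those without one in the same pools. Such neurons also held more UMIs in all, and 2.52% to 8.95% of microglia held a reporter UMI too, against 13.6% to 29.3% of cortical glutamatergic and 16.3% to 23.3% of spiny neurons. In oligodendrocyte precursors the shares were 8.55% to 17.3% in the cortex and 6.98% to 26.3% in the striatum, which overlapped those of the neurons. In the cortex 2 of 9 genes were called (7.4% of all genes): Camk2d was lower in positive neurons (log2 -0.16, SE 0.039, edgeR adjusted p = 0.00311), though not in every pool, and Calm2 was higher by 0.05 (SE 0.016, adjusted p = 0.0248) in 6 of 6 pools. DESeq2 lost the Camk2d call (adjusted p = 0.0879), and the Calm2 call was lost without control replicate 2, early replicate 1 or late replicate 1. The Calm2 call was lost also without the low-count filter (log2 0.02, adjusted p = 0.824) and with at least 2 reporter UMIs (0.025, adjusted p = 0.803). Among neurons in the middle quartiles of UMIs the Calm2 difference turned to -0.0084 (adjusted p = 0.936). Near-projecting neurons, the type richest in Camk2d, made up 2.73% of positive and 7.33% of negative cells, and were the smaller share of positive cells in 6 of 6 pools. Layer 2/3 neurons (21.9% and 19.5%) and layer 6 intratelencephalic neurons (15.8% and 11.0%) were the larger share of positive cells in 6 of 6 pools. Rorb neurons of layer 4/5 made up 8.90% and 11.5%, and corticothalamic neurons 25.2% and 27.5%. The part of these shares in the Camk2d difference was not tested. Within single layer types, tested after seeing the data (1.08% of all genes called), no gene of the family was called, and Camk2d differed by 0.10 in layer 2/3, 0.00 in corticothalamic and 0.11 in intratelencephalic neurons. In spiny neurons 0 of 9 genes were called (0.352% of all genes), and none had an unadjusted p under 0.05.

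Around the 9 genes, a list of 45 other genes of calmodulin signalling was counted in the same tests. It holds calmodulin reservoirs, kinases of the CaM kinase cascade, inhibitors of CaMKII, calcineurin subunits and regulators, other enzymes switched on by calmodulin, and targets. Between cortical glutamatergic and GABAergic neurons 43 were tested, of which 26 were higher and 12 lower in glutamatergic neurons (69.0% of all genes called). Lower was Pcp4l1 (log2 -5.49), related to the calmodulin regulator Pcp4, while the inositol kinase Itpka (5.04), the phosphatase inhibitor Ppp1r1b (4.95), the calmodulin reservoir neurogranin, Nrgn (4.51), and the upstream kinase Camkk2 (1.82) were higher. The second catalytic calcineurin gene Ppp3cb was higher by 0.32. Layer 2/3 neurons had more of the CaMKII inhibitors Camk2n2 (4.91) and Camk2n1 (3.63) than corticothalamic neurons and less Pcp4 (-5.93), a regulator of calmodulin, Pde1a (-2.12), a calmodulin-dependent phosphodiesterase, and Adcy1 (-1.44), a calmodulin-stimulated adenylyl cyclase, with 22 higher and 17 lower of 41 (63.4% of all genes called). Parvalbumin cells had less Pde1a (-5.31), Pcp4 (-4.11), Gap43 (-3.13) and Camk2n1 (-1.05) than somatostatin cells and more Pcp4l1 (2.57), with 8 higher and 13 lower of 37 (33.2% of all genes called).

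In the striatum spiny neurons had more Ppp1r1b (6.38), which encodes the dopamine-regulated phosphatase inhibitor DARPP-32, and Nrgn (6.32) than interneurons, and less Camk2n2 (-7.67), the CaMKII phosphatase Ppm1e (-7.34) and the kinase Camk1 (-5.48), with 22 higher and 14 lower of 43 (75.0% of all genes called). Ppp3cb differed by 0.11 (edgeR adjusted p = 0.0793). D1 neurons had less Nrgn (-0.77), Adcy1 (-0.62), Ppp1ca (-0.34) and Pcp4l1 (-0.33) than D2 neurons and more of the anchor Akap5 (0.39), with 11 higher and 11 lower of 41 (26.2% of all genes called). Ppm1e (-6.16), Camk2n2 (-4.86) and Camk1 (-3.68) were lower in D1 and D2 than in eccentric neurons, and Ppp1ca (1.42) and Ppp1r1b (1.08) higher, with 24 higher and 10 lower of 43 (51.3% of all genes called). Set against cortical glutamatergic neurons, spiny neurons had more of the phosphodiesterases Pde1c (8.13) and Pde1b (3.61) and less Ppm1e (-7.24), Camk1 (-5.63) and Adcy1 (-3.28), with 16 higher and 16 lower of 42 (66.0% of all genes called). By hemisphere no gene of the list was called. By stage, 3 of the calls over the list were Nrgn, a neuron message, outside neurons. It was lower in late than in control pools in cortical astrocytes (-1.90, not on one side in every pool), and lower in early (-2.82) and late (-2.77) than in control pools in cortical fibroblasts. Neuron genes in these astrocytes stood at 9.03% of their neuronal level in control replicate 1 and at 1.26% to 2.26% in the other cortical pools. In the fibroblasts they stood at 23.4% and 14.96% in control, 9.92% and 15.3% in early and 11.1% and 11.4% in late pools, and their part in the Nrgn calls was not tested. The other call was Gap43 in striatal Pvalb/Pthlh interneurons, higher in late than in early pools (0.88). These made 1 of 615 pairs of gene and type for early against control and 2 of 615 for late against control in the cortex (0.00368% and 0.0258% of all genes), and 1 of 651 for late against early in the striatum (0.0306%).

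Over 41 combinations of region and cell type, the genes most like each member were ranked by Pearson's r among 12273 genes, as a description, since types of 1 region share their libraries and depth. With Spearman's rho only 5 of the 27 pairs named stay among the 3 highest of a gene: Camk2a with Dmtn, Camk2b with Grin1, Camk2d with Inpp4b, Camk2g with Mical2 and Calm3 with Znhit3. By Pearson's r Camk2b was most like Sptbn4 (0.97), Grin1 (0.97) and Rasgef1a (0.97), and Ppp3r1 like Atp6v1d (0.96), Ensa (0.95) and Arf3 (0.95). Camk2a was most like Psd (0.93), Snap25 (0.93) and Dmtn (0.92), Camk4 like Zfyve28 (0.91), Phyhip (0.90) and Fcho1 (0.90), and Ppp3ca like Phyhip (0.92), Hpca (0.91) and Zfyve28 (0.91). Calm2 was most like Atp6v1d (0.92), Ensa (0.91) and Arf3 (0.91), Calm3 like Znhit3 (0.94), Idh3a (0.94) and Chchd6 (0.93), and Camk2g like Mical2 (0.89), Klhl26 (0.86) and Idh3b (0.84). For Camk2d the highest values were 0.67 with Inpp4b, 0.61 with Pck2 and 0.61 with Camk1. Within the family, r was 0.95 between Camk2b and Ppp3r1, 0.92 between Camk4 and Ppp3r1, 0.91 between Ppp3ca and Ppp3r1, and 0.91 between Camk4 and Ppp3ca, and from -0.34 to 0.31 between Camk2d and each of the other 8.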

How the data were processed

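Single cells were measured with a Chromium 3' method in 24 libraries of 12 pools. The deposited matrices hold UMI counts per gene and cell, made by the authors with Cell Ranger 3.1.0 on GRCm38 (mm10), per the submitters' processing notes, while the matrix headers name software version 3.0.2. The kit was version 2 or 3 per the labels' protocols, with no record of which library used which. Kit class was called from shared cell barcodes.

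Of 127901 barcodes, 103715 had 500 genes and 1000 UMIs or more with no more than 20% of UMIs from mitochondria, and 5103 presumed doublets (0.8% per 1000 cells, Scrublet in scanpy 1.11.5) were removed. Clusters came from 2000 variable genes, 40 components, 20 neighbours and Leiden resolution 1.5 (leidenalg 0.10.2). They were named by markers, with naming rules adjusted after the clusters were seen, so that type names are rebuilt ones. UMIs were summed per pool and type (at least 20 cells) and tested with edgeR 4.0.16 (TMM, filterByExpr, quasi-likelihood F test, Benjamini-Hochberg over all genes tested, threshold 0.05), with kit class as a term between pools and the pool as a term within pools. DESeq2 1.42.0, other filters and each pool left out were alternatives. The tests were checked on simulated counts. Levels are log2 CPM with a prior count of 2.

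The 9 genes and the list of 45 were chosen with earlier results of these data known, and 1 further gene of the list is not reported here. All 9 are named whatever their values. From the list, up to 5 called genes are named in each comparison described for it, those of lowest adjusted p that moved the same way in every pool. Ppp3cb and the astrocyte call of Nrgn were added after their values were seen. The list was also tested between regions in shared types, by reporter, and against non-neuronal cells and neuroblasts. Those calls are not described here. For likeness the 3 genes with the highest correlation are named.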

Additional observations from a re-analysis of the deposited data

Results flagged for a closer look

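In groups of 4 libraries (2 pools by 2 hemispheres) the lowest or highest library was set against the others by Dixon's test for 45 groups of gene, region and stage in projection neurons. Chance picks about 1 in 20 groups of independent values, but these libraries come in pairs from the same mice, so that this rate need not hold. The test picked 2, both in cortical glutamatergic neurons of late replicate 2. Camk2b stood at 8.78 log2 CPM in the contralateral library of that pool, with the other 3 late libraries at 8.88 to 8.90. Ppp3r1 stood at 9.48 in the ipsilateral library, with the others at 9.56 to 9.58. The cause was not tested.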

How the results depend on the processing

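By replicate number, no paired analysis was possible because the numbers were given in accession order and pair no pools of different stages. The type, hemisphere and reporter tests were paired by pool. Within a region the flow cell beside stage leaves 0 residual degrees of freedom, so differences within flow cells are given as values. Over both regions it could be fitted: region calls then went from 14 to 7, all between spiny and glutamatergic neurons, and stage calls were 0. Region differences in that fit rest on early replicate 2 and late replicate 2, whose flow cells hold both regions. There were 3 stage calls, 5 without the low-count filter (2 of the 3 among them) and 0 with DESeq2 or without the kit term. With at least 50 cells per pool or with stricter cells the number was 0 as well, but the 3 pairs could not be fitted there. Leaving out 1 pool gave 0 to 2 stage calls in the cortex (1 with all pools) and 2 to 27 in the striatum (2 with all pools), of 474 to 516 tests, beside 0.102% to 0.885% of all genes. Without the low-count filter hemisphere calls went from 0 to 1, calls of the region by stage term from 0 to 4 and region calls from 14 to 22. The shares of all genes called without this filter are not given here, so these counts are not read as a result about these genes. Leaving out 1 pool gave 0 to 1 hemisphere calls in either region and 12 to 16 region calls. Without the kit term 9 region calls were left. Reporter calls went from 2 to 1 with DESeq2 and lay between 1 and 3 in the cortex with 1 pool left out. The reporter difference of Calm2 turned to -0.0084 among neurons in the middle quartiles of UMIs. Pairs above the level of free RNA in every pool went from 104 to 64 when Stmn2 alone set that level, and 5 of the 27 most alike genes were shared with a ranking by Spearman's rho. Of the differences between types 123 were called, and 116 to 124 under other scaling, filters, tools and cells. Of the calls of single genes tested again under alternatives, 1459 kept direction and side of the threshold, 52 kept direction only and 1 turned. Tests that became calls only under an alternative are not in this tally. The cause of these changes was not tested. Leave-outs of the region by stage term were not run. Small types and low genes, such as Ppp3ca in fibroblasts, are limited by UMI counts.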
